A study of Mus musculus with 2 samples.

Results

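Cells with a long CDR3 beta were chosen by a measured value, CDR3 length: they are the cell barcodes with at least 1 T cell receptor beta (TRB) chain whose CDR3 had 17 or more amino acid residues. They numbered 521 of the 9117 called cells, with 219 of 4040 in the WT library and 302 of 5077 in the Btla-/- library. TCR transcripts of CD4 single positive (SP) thymocytes had been sequenced by single-cell V(D)J sequencing, with 1 library of C57BL/6 WT mice and 1 library of C57BL/6 Btla KO (Btla-/-) mice, all 8 to 12 weeks old. The cells had been enriched from the thymus by negative selection with a kit for naive CD4 T cells, and the number of mice behind a library is not given in the sources used here. The libraries hold TCR transcripts alone, so neither the CD4 SP label nor the loss of Btla, which encodes a co-inhibitory receptor, could be checked in them. There was no second library of either genotype, so no test was made. Percentages are given with exact Clopper-Pearson 95% intervals that cover counting error only, and shares are called apart where these intervals do not overlap. Beside a count of 0, the share that 3 counts of the total would make is given as a limit, together with the upper bound of the exact interval, which is higher.

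The CDR3 is the loop of a TCR chain that spans the junction of its rearranged gene segments and lies over the peptide of the peptide-MHC complex. In the beta chain it joins the end of a TRBV gene, a short TRBD gene and the start of a TRBJ gene. Exonuclease trimming shortens the segment ends and terminal deoxynucleotidyl transferase adds bases without a template, so length varies between cells. The locus holds TRBD1 in front of the TRBJ1 genes and TRBC1, followed by TRBD2, the TRBJ2 genes and TRBC2.

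The germline pieces are shown because they set how many bases a chain starts from before trimming. They were read from the forward strand of chromosome 6 of GRCm38, where all lie in the Trb locus, and are given 5′ to 3′. TRBD1 lies at chr6:41533201-41533212 and TRBD2 at chr6:41542163-41542176. The V piece is the stretch from the conserved cysteine codon to the end of the gene, and the same 17 bases end TRBV2 and TRBV5. Each J piece runs from the start of the gene to the codon of the conserved phenylalanine, with 25 bases in TRBJ1-6, 23 in TRBJ2-2 and 19 in TRBJ2-7.
TRBV2 and TRBV5: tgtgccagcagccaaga
TRBD1: gggacagggggc
TRBD2: gggactgggggggc
TRBJ1-6: ttcctataattcgcccctctacttt
TRBJ2-2: caaacaccgggcagctctacttt
TRBJ2-7: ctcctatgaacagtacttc

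The next chains show what a long CDR3 beta is made of. They are 1 of the 2 chains of 20 residues, the longest length, of each library, the chain of 17 residues with most unique molecular identifiers (UMIs) in each library, and the only sequences found in 3 cells of a library. Capitals mark the bases between the end of the germline V match and the start of the germline J match. The WT chain of 20 residues shown had 27 such bases, which held all 12 bases of TRBD1. The Btla-/- chain of 20 residues shown kept all 17 bases of TRBV5 and all 23 of TRBJ1-4.
WT, TRBV14 with TRBJ1-3, 20 residues: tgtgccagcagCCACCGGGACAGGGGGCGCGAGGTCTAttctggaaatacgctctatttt
Btla-/-, TRBV5 with TRBJ1-4, 20 residues: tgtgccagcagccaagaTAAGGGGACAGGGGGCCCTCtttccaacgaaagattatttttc
WT, TRBV5 with TRBJ2-3, 17 residues, 76 UMIs: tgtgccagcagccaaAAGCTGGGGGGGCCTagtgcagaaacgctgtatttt
Btla-/-, TRBV16 with TRBJ2-1, 17 residues, 144 UMIs: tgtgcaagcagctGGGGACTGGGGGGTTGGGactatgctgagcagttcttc
WT, TRBV5 with TRBJ1-1, 17 residues, in 3 cells: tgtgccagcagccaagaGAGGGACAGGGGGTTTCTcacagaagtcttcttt
Btla-/-, TRBV17 with TRBJ1-4, 18 residues, in 3 cells: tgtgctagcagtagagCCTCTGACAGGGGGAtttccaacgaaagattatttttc

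Long chains made up 219 of 4141 TRB chains in WT and 303 of 5181 in Btla-/-, 1 Btla-/- cell holding 2 of them. Among cells with a TRB chain, 5.46% (interval 4.78 to 6.21, n = 4009) had a long CDR3 beta in WT and 6.02% (5.38 to 6.72, n = 5014) in Btla-/-. The intervals of the genotypes overlapped. Chains of 17 residues numbered 171 in WT and 227 in Btla-/-, those of 18 residues 37 and 63, those of 19 residues 9 and 11, and those of 20 residues 2 in each library. Just below the limit, 531 WT and 702 Btla-/- chains had 16 residues. The comparison class was the chains of 13 to 16 residues, called usual chains here, with 3388 in WT and 4272 in Btla-/-. All 522 long CDR3s began with cysteine and equalled the translation of their nucleotide sequence, and 521 ended in phenylalanine. The exception was a WT chain with TRBJ1-6 that ended in proline.

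**Figure D1:**
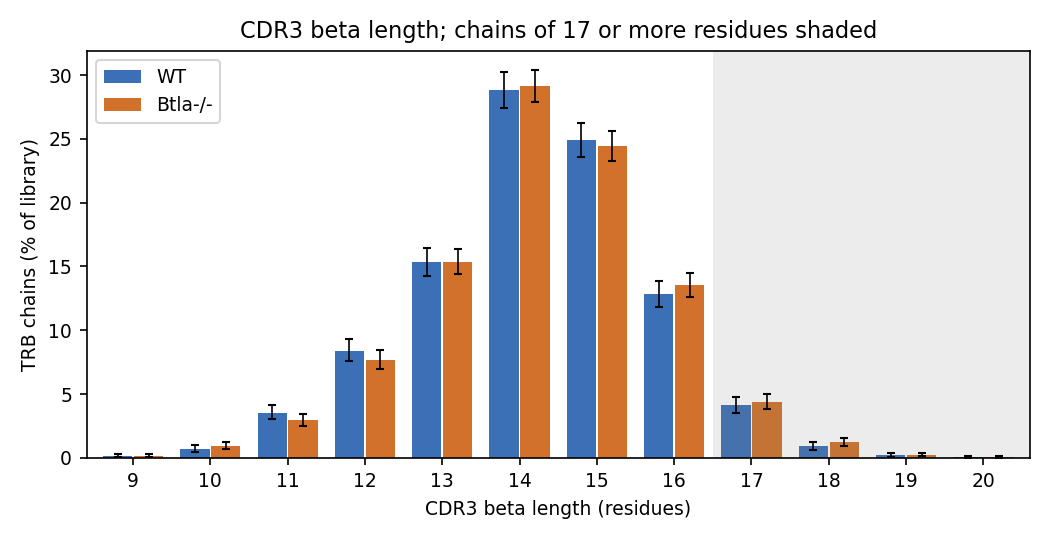
CDR3 beta length in residues (x axis) against the percent of the TRB chains of the library (y axis), with bars for the WT and Btla-/- libraries and 95% exact intervals that cover counting error only. The long chains, shaded, fell from 4.13% and 4.38% of chains at 17 residues to 0.0483% and 0.0386% at 20 residues.

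Of the parts of the CDR3, the stretch between V and J held most of the extra bases. A long chain had on average 51.8 CDR3 bases in WT and 51.9 in Btla-/-, which was 8.54 and 8.59 bases more than a usual chain. This difference follows from the choice of members, and its split into parts is given as a description. The bases between V and J numbered 16.7 ± 3.22 (SD, n = 219 chains) in long WT chains against 10.8 ± 3.44 (n = 3388 chains) in usual ones. In Btla-/- they numbered 16.9 ± 3.20 (n = 303 chains) against 10.9 ± 3.43 (n = 4272 chains). These bases accounted for 69.1% of the difference in WT and 70.1% in Btla-/-. The longest TRBD match within them grew by 2.69 and 2.64 bases, and the other bases, which include added ones, by 3.21 and 3.38 bases. The J match contributed 1.64 and 1.48 bases and the V match 1.0 and 1.09 bases.

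Whole segment ends were more frequent in long chains. The whole germline V end was kept in 39.7% of long WT chains (33.2 to 46.5) against 24.4% of usual ones (23.0 to 25.9). In Btla-/- the shares were 42.2% (36.6 to 48.0) and 23.2% (21.9 to 24.5). The whole J start was kept in 52.1% (45.2 to 58.8) against 32.2% (30.6 to 33.8) in WT and in 45.9% (40.2 to 51.7) against 32.2% (30.8 to 33.6) in Btla-/-. V match, J match and the bases between them add up to the CDR3 length that chose the members, so these shares describe how the length is made up and support nothing further. A TRBD match of at least 10 bases was found in 54.3% of long WT chains and 54.8% of long Btla-/- chains, against 17.9% and 17.5% of usual chains. The whole of TRBD2, the longer D gene, was found in 14 of 219 and 24 of 303 long chains against 20 of 3388 and 23 of 4272 usual ones. From 16 to 17 residues the mean number of bases between V and J went from 13.6 to 16 in WT and from 13.8 to 16.2 in Btla-/-.

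**Figure D2:**
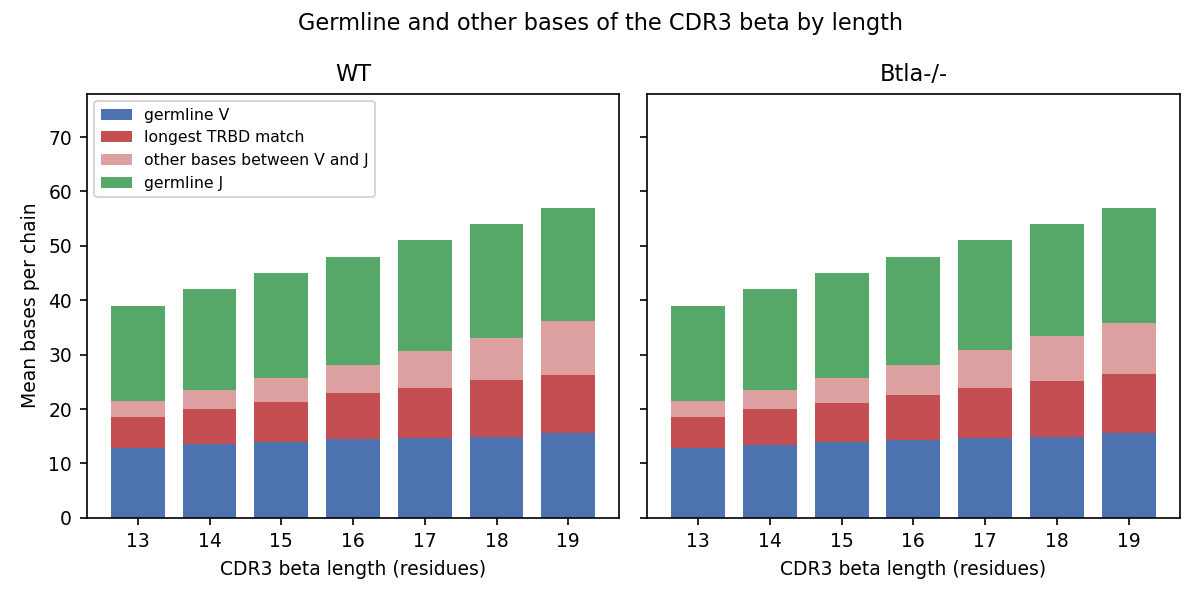
CDR3 beta length in residues (x axis) against the mean number of bases per chain (y axis) in the germline V match, the longest TRBD match, the other bases between V and J and the germline J match, stacked, for each library. The TRBD match grew from 5.77 bases at 13 residues to 10.6 at 19 residues in WT and from 5.65 to 10.8 in Btla-/-.

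TRBJ genes differed in the share of their chains that were long. Of the 12 TRBJ genes seen, 3 (25%) had shares among long chains that were higher than among usual chains and apart in both libraries, and 3 (25%) had shares that were lower and apart in both. TRBJ2-2 was used by 10.5% of long and 5.67% of usual WT chains, and by 14.9% of long and 5.99% of usual Btla-/- chains. TRBJ2-3 was used by 17.8% of long against 8.88% of usual chains in WT and by 15.5% against 9.64% in Btla-/-. For TRBJ2-4 the values were 16.4% against 8.32% in WT and 16.2% against 8.36% in Btla-/-. In the other direction, TRBJ2-7 was used by 1.37% of long against 14.5% of usual WT chains, and by 3.96% against 13.1% in Btla-/-. TRBJ1-1 fell on the same side with 4.11% against 10.8% in WT and 2.97% against 10.6% in Btla-/-. TRBJ1-2 did so with 0.913% against 7.23% in WT and 2.64% against 7.09% in Btla-/-. With only chains of at least 3 UMIs TRBJ2-2 was no longer apart in both libraries, and with only cells of exactly 1 TRB chain TRBJ2-3 was not. With long set at 18 or more residues, which leaves 48 WT and 76 Btla-/- chains, TRBJ2-7 alone was apart in both.

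The 3 TRBJ genes that were lower among long chains were the 3 with the fewest germline CDR3 bases, at 19 or 20. Of the 659 WT chains with TRBJ2-7, 3 were long, or 0.455% (0.0940 to 1.32), and of the 768 in Btla-/- 12 were, or 1.56% (0.810 to 2.71). TRBJ1-6, with the longest J piece, had 9.36% long chains in WT (5.44 to 14.7) and 8.65% in Btla-/- (5.02 to 13.7), and its share was not apart between the classes in either library. The highest share stood at TRBJ2-2 in Btla-/-, with 14.3% (10.6 to 18.6) against 10.2% (6.59 to 14.9) in WT, and at TRBJ2-3 in WT, with 10.8% (7.77 to 14.4) against 9.83% (7.31 to 12.9) in Btla-/-. Over the 12 genes, the share of long chains had a Pearson correlation of 0.56 with the number of germline J bases in WT and of 0.57 in Btla-/-, as a description of points that share a library. J bases are part of the CDR3 length that chose the members, so the relation of TRBJ genes to length is in part built in. TRBJ2-1, TRBJ2-5, TRBJ1-3, TRBJ1-4 and TRBJ1-5 were not apart in both libraries. TRBJ2-1 alone among them was apart in 1 library, with 16.4% of long against 10.6% of usual chains in WT, beside 10.2% and 10.7% in Btla-/-. Between the libraries, 0 of the 12 genes (0%) had shares among long chains that were apart.

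**Figure D3:**
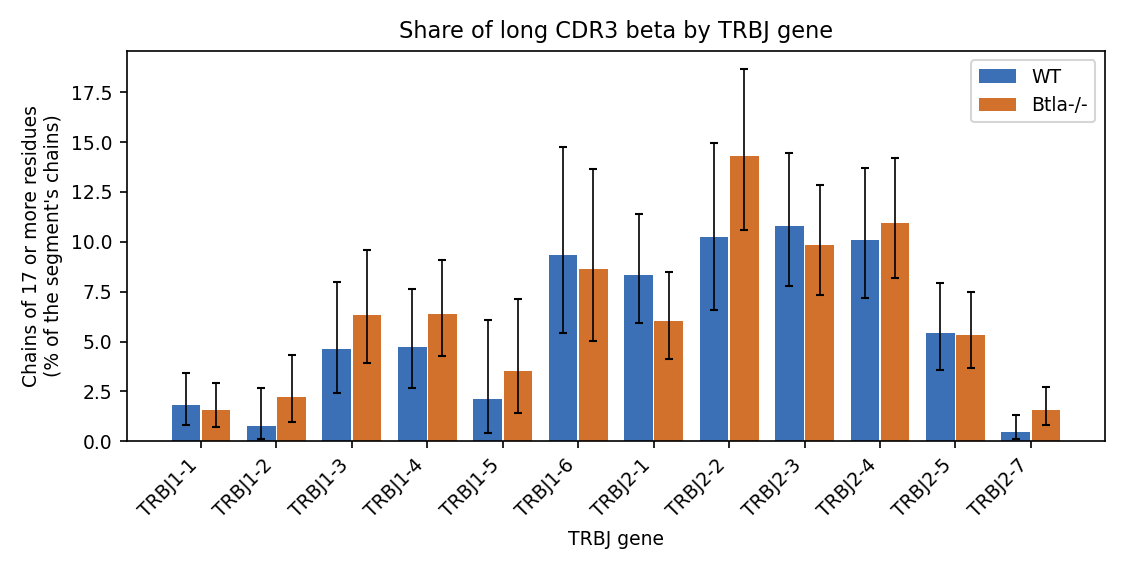
TRBJ gene (x axis) against the percent of the chains with that gene that had a CDR3 beta of 17 or more residues (y axis), with bars for the WT and Btla-/- libraries and 95% exact intervals that cover counting error only. TRBJ2-7, TRBJ1-1 and TRBJ1-2 stay between 0.455% and 2.22%, and TRBJ2-2, TRBJ2-3 and TRBJ2-4 between 9.83% and 14.3%.

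By cluster, 74.0% of long WT chains (67.6 to 79.7) and 71.0% of long Btla-/- chains (65.5 to 76.0) used a TRBJ2 gene, against 59.2% and 59.3% of usual chains. The constant region followed, with TRBC2 in 74.0% and 70.6% of long chains. Chains of any length with a TRBJ2 gene had 11 bases between V and J in WT and 11.3 in Btla-/-, and chains with a TRBJ1 gene had 9.80 and 9.93.

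A D gene had been called by the authors in 111 of 219 long WT chains and in 157 of 303 long Btla-/- chains. TRBD2 was called in 27.4% of long WT chains (21.6 to 33.8) against 6.40% of usual ones (5.60 to 7.28). In Btla-/- the TRBD2 shares were 26.1% (21.2 to 31.4) and 6.58% (5.85 to 7.36). TRBD1 was called in 23.3% of long against 18% of usual chains in WT, which overlapped, and in 25.7% against 16.5% in Btla-/-, which were apart. No D gene was called in 49.3% and 48.2% of long chains and in 75.6% and 77.0% of usual ones, and a longer match is easier to call. D bases are part of the CDR3 length that chose the members, so these differences are in part built in. Among long chains with a TRBJ1 gene, TRBD2, which lies behind all TRBJ1 genes, was called in 0 of 57 in WT and 0 of 88 in Btla-/-. At 3 counts of the total these allow a share of up to 5.26% and 3.41%, with exact upper bounds of 6.27% and 4.11%. In usual chains with a TRBJ1 gene it was called in 3 of 1381 (0.217%) in WT and 1 of 1738 (0.0575%) in Btla-/-. The intervals of the classes overlapped, so the 0 counts are not particular to long chains. All 3 reading frames of both D genes were in use in long chains of both libraries. In each library the frame shares of TRBD1 and TRBD2 in long chains had intervals that overlapped those of usual chains. The TRBD2 frame that reads aspartate, tryptophan and glycine held 30.3% of the 122 long WT chains with a clear TRBD2 match and 33.3% of the 159 in Btla-/-.

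A few long chains carried matches of at least 7 bases to TRBD1 and then to TRBD2, marked so as not to overlap. They were 2 of 219 in WT and 2 of 303 in Btla-/-. All 4 used a TRBJ2 gene. In WT they were 2 of 162 long chains with a TRBJ2 gene, beside 1 of 2007 usual ones. In Btla-/- they were 2 of 215, beside 0 of 2534 usual ones. That 0 allows up to 0.118% at 3 counts of the total (exact upper bound 0.145%). The intervals of the classes overlapped in each library. They were apart only with the libraries pooled, at 4 of 377 against 1 of 4541, which counts 1 Btla-/- sequence for 2 cells. The same order was found in 1 of 3119 usual chains with a TRBJ1 gene, although TRBD2 lies behind all TRBJ1 genes. The opposite order, TRBD2 before TRBD1, was found in 0 of the 522 long chains, which allows up to 0.575% at 3 counts of the total (exact upper bound 0.704%), and in 3 of 7660 usual chains. Longer stretches have more room for a match, and how often one arises by chance was not tested. The share depended on the minimum match, with 3.65% of long WT chains and 1.98% of long Btla-/- chains at 6 bases, and 0.457% and 0% at 8 bases. Counted once per nucleotide sequence, it was 0.345% in Btla-/-. The sequences are printed with capitals on the TRBD1 match and on the TRBD2 match that follows it. They run together in the second and the last, where G bases at the boundary fit both genes and were given to TRBD1. In these 2 sequences the longest TRBD2 match was 12 bases, against the 9 and 10 bases marked. The 7 bases of TRBD1 were thus reached only with bases that TRBD2 also matched. The Btla-/- sequence occurred in 2 cells with 2 and 3 UMIs.
WT, TRBV20 with TRBJ2-1, 17 residues, 17 UMIs: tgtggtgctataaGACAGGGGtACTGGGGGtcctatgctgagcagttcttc
WT, TRBV5 with TRBJ2-2, 18 residues, 15 UMIs: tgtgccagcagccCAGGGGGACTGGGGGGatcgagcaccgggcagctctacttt
Btla-/-, TRBV12-2+TRBV13-2 with TRBJ2-5, 18 residues: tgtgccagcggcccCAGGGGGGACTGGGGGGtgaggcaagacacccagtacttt

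Of the 22 TRBV calls, 2 (9.09%) had shares among long chains that were higher than among usual chains and apart in both libraries, and none (0%) had lower shares that were apart in both. These were TRBV2 and TRBV5, whose germline CDR3 ends are identical. TRBV2 was used by 9.13% of long WT chains (5.67 to 13.8) against 4.63% of usual ones (3.95 to 5.40). In Btla-/- it was used by 9.57% (6.50 to 13.5) against 4.03% (3.46 to 4.66). TRBV5 was used by 16.4% (11.8 to 22.0) against 7.5% (6.63 to 8.44) in WT. In Btla-/- the TRBV5 shares were 11.6% (8.18 to 15.7) and 7.35% (6.59 to 8.17), so that the intervals lay close. With each nucleotide sequence counted once, or with only chains of at least 3 UMIs, TRBV5 alone was apart in both libraries. With long set at 18 or more residues, TRBV2 alone was.

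TRBV1, the joint call TRBV12-2+TRBV13-2 and TRBV16 followed, with higher shares among long than usual chains in both libraries and intervals that overlapped. At the low end stood TRBV29, TRBV31, TRBV26, TRBV13-3 and TRBV20, each with a lower share among long chains in both libraries. TRBV29 was used by 2 of 219 long WT chains, or 0.913% (0.111 to 3.26), against 4.25% of usual ones (3.6 to 4.98), which were apart. In Btla-/- it was used by 6 of 303, or 1.98% (0.730 to 4.26), against 4.45% (3.85 to 5.11), which overlapped. TRBV31 and TRBV20 have the shortest V pieces among the named genes, with 14 bases, and TRBV29 and TRBV26 have 17, as TRBV2 and TRBV5 do. The V calls with 14 germline bases had 2.52% long chains in both libraries, and those with 17 had 6.23% in WT and 6.62% in Btla-/-. Those with 15 and 16 bases had 4.21% and 4.82% in WT and 5.86% and 5.32% in Btla-/-. Over the 20 V calls with at least 1% of chains in both libraries, Pearson's r with germline V bases was 0.29 in WT and 0.39 in Btla-/-. V bases are part of the CDR3 length that chose the members, so this relation is in part built in. Long chains used 112 combinations of V and J genes in WT and 144 in Btla-/-. The most frequent was TRBV5 with TRBJ2-5 in WT, with 8 chains, and TRBV5 with TRBJ2-4 in Btla-/-, with 9.

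**Figure D4:**
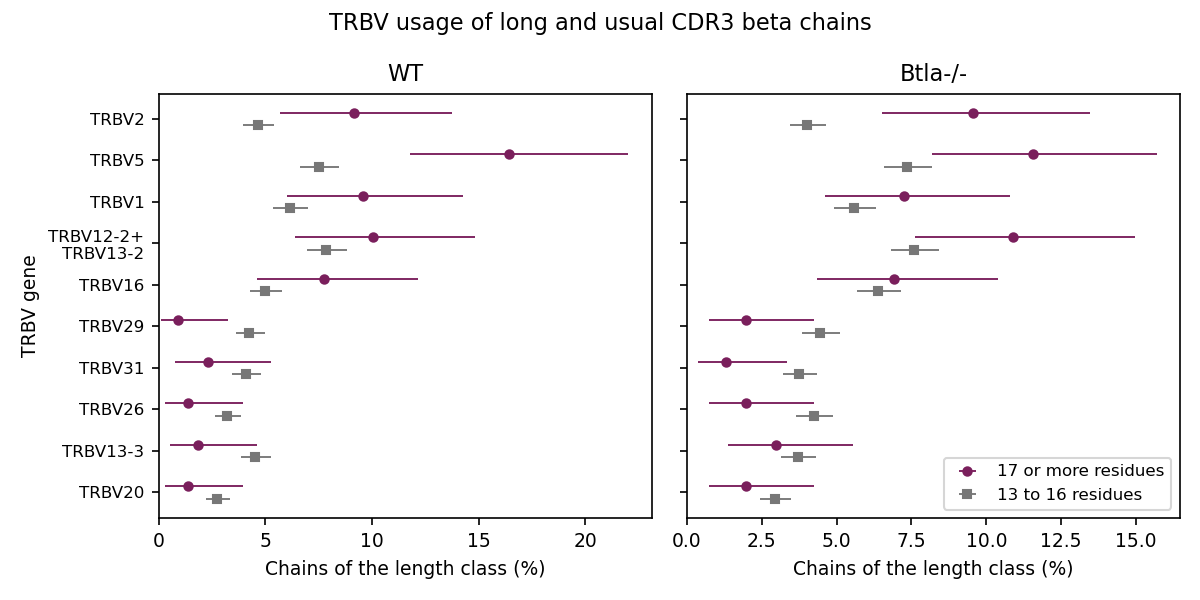
Percent of the chains of a length class (x axis) that used each TRBV gene (y axis), for long chains (circles) and usual chains (squares) in the WT library (left) and the Btla-/- library (right), with 95% exact intervals that cover counting error only. The genes are the 5 highest and the 5 lowest by the ratio of long to usual chains, and the intervals of TRBV2 and TRBV5 lie apart on both sides.

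TRBV17 was the only V call (4.55% of 22) whose share among long chains was apart between the genotypes. It was used by 2 of 219 long WT chains, or 0.913% (0.111 to 3.26), and by 17 of 303 long Btla-/- chains, or 5.61% (3.30 to 8.83). Among usual chains its shares were 2.86% in WT and 2.53% in Btla-/-. The 17 Btla-/- chains came from 17 cells and held 14 distinct nucleotide sequences. They used 6 TRBJ genes, with TRBJ1-4, TRBJ2-3 and TRBJ2-4 in 4 chains each, and had 17 residues in 8 cases and 18 in 9. Both WT chains used TRBJ2-4 and had 17 residues. Counted once per nucleotide sequence, TRBV17 made up 4.83% of long Btla-/- chains (2.66 to 7.97) and 0.935% of long WT chains (0.113 to 3.34), and the intervals overlapped. The difference rests on 1 library per genotype and was not tested.

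In amino acids, the middle of the CDR3, without its first 4 and last 5 residues, had a mean of 8.28 residues in long WT chains and 8.30 in long Btla-/- chains, against 5.43 and 5.44 in usual chains. Glycine, the smallest residue and the main product of the G-rich D genes, was the most frequent residue there. It made up 24.8% of middle residues of long WT chains against 23.9% in usual ones, and 26.1% against 23.7% in Btla-/-. With long set at 18 or more residues the WT share was 22.9%, below that of usual chains, and the Btla-/- share 27.3%. A run of at least 2 glycines was found in 47.9% of long WT chains (41.2 to 54.8) against 24.9% of usual ones (23.4 to 26.3). In Btla-/- these shares were 48.8% (43.1 to 54.6) and 24.4% (23.2 to 25.8). A longer middle gives more places for such a run. Asparagine, which several TRBJ starts encode, made up a smaller part of the middle of long chains, by 2.52 percentage points in WT and by 1.85 in Btla-/-. Per chain it was not rarer, with 0.443 in long against 0.427 in usual WT chains and 0.475 against 0.412 in Btla-/-. The longer middle of long chains lowers the share of a residue whose count stays alike. Tryptophan, present in 1 TRBD2 frame, was found in 18.7% of long against 10.6% of usual WT chains and in 20.8% against 11.3% in Btla-/-. As a share of middle residues the difference in tryptophan was 0.333 and 0.622 percentage points. Arginine and tyrosine differed in opposite directions in the libraries, as did leucine, threonine, glutamate, lysine, methionine, phenylalanine, histidine and glutamine. Only 1 long WT chain and 3 long Btla-/- chains had a cysteine in the middle.

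The alpha chain, which the choice of members did not use, was recovered in fewer of the cells with a long CDR3 beta in WT. A TRA chain was found in 66 of 219 such WT cells, or 30.1% (24.1 to 36.7), against 41.5% (39.8 to 43.2) of the 3258 cells with usual TRB chains alone. In Btla-/- it was found in 96 of 302, or 31.8% (26.6 to 37.4), against 34.1% (32.7 to 35.6) of 4110. The classes were apart in WT and overlapped in Btla-/-. TRB chains of the WT members had a median of 11 UMIs against 13 in usual chains, and those of Btla-/- members 9 against 10. In WT cells the share with a TRA chain was lower for long CDR3 beta at each level of TRB UMIs, with 30.3% against 40.4% at 1 to 5 UMIs, 30.2% against 40.8% at 6 to 10, 28.9% against 45.4% at 11 to 20 and 32.5% against 38.3% above 20. The WT intervals were apart only at 11 to 20 UMIs. In Btla-/- the direction was not the same at each level, with 37.0% against 32.0% at 1 to 5 UMIs, 30.7% against 35.2% at 6 to 10, 33.0% against 37.7% at 11 to 20 and 21.6% against 28.6% above 20, all with overlapping intervals. This split was chosen after the values had been seen.

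Where both chains were known, alpha length was close in the 2 classes. The TRA CDR3 had a mean length of 13.9 ± 1.48 residues (SD, n = 71 chains) in WT cells with a long CDR3 beta and 13.8 ± 1.5 (n = 1483 chains) in cells with usual chains. In Btla-/- the means were 13.7 ± 1.52 (n = 105 chains) and 13.7 ± 1.47 (n = 1504 chains). Over cells with exactly 1 chain of each kind, Pearson's r between the lengths was 0.0073 in WT (n = 1406 cells) and 0.0096 in Btla-/- (n = 1466 cells), as a description. Among 12 TRAV subgroups, TRAV5 and TRAV7 had the highest ratio of shares in members to shares in the other cells, and TRAV13 and TRAV14 the lowest. Each of these 4 had overlapping intervals in both libraries. TRAV14 was found in 2 of 71 TRA chains of WT members and in 11 of 105 of Btla-/- members. The TRAJ genes at the high end were TRAJ33 and TRAJ4, with at most 7 chains of members in a library. TRAJ40 and TRAJ56 were listed at the low end without a mean ratio. Each was found in 0 of 105 TRA chains of Btla-/- members. At 3 counts of the total this allows up to 2.86%, with an exact upper bound of 3.45%. In WT members TRAJ40 made up 4.23% against 2.70% in the other cells, and TRAJ56 1.41% against 2.43%, with overlapping intervals.

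TRAJ genes join in an order, from those near the TRAV genes (high numbers) toward those near the constant gene (low numbers) as rearrangement of the alpha locus goes on. TRAJ1 to TRAJ30 made up 46.5% (34.5 to 58.7) of the 71 TRA chains of WT members and 71.4% (61.8 to 79.8) of the 105 TRA chains of Btla-/- members. In cells with usual TRB chains the shares were 48.8% (46.2 to 51.4) in WT and 56.8% (54.2 to 59.3) in Btla-/-. Members thus differed from the other cells by -2.34 percentage points in WT and by 14.6 in Btla-/-, and only the Btla-/- classes were apart. The sign in WT turned with only cells of exactly 1 TRB chain, where the share in members was 50.0%, and with the boundary at TRAJ20 or TRAJ40. In Btla-/- members with exactly 1 TRB chain the share was 68.6% (57.7 to 78.2). This interval overlapped the 54.2 to 59.3 of all Btla-/- cells with usual TRB chains. The boundary at TRAJ30 came from earlier work on these data, and the difference between the genotypes was not tested.

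**Figure D5:**
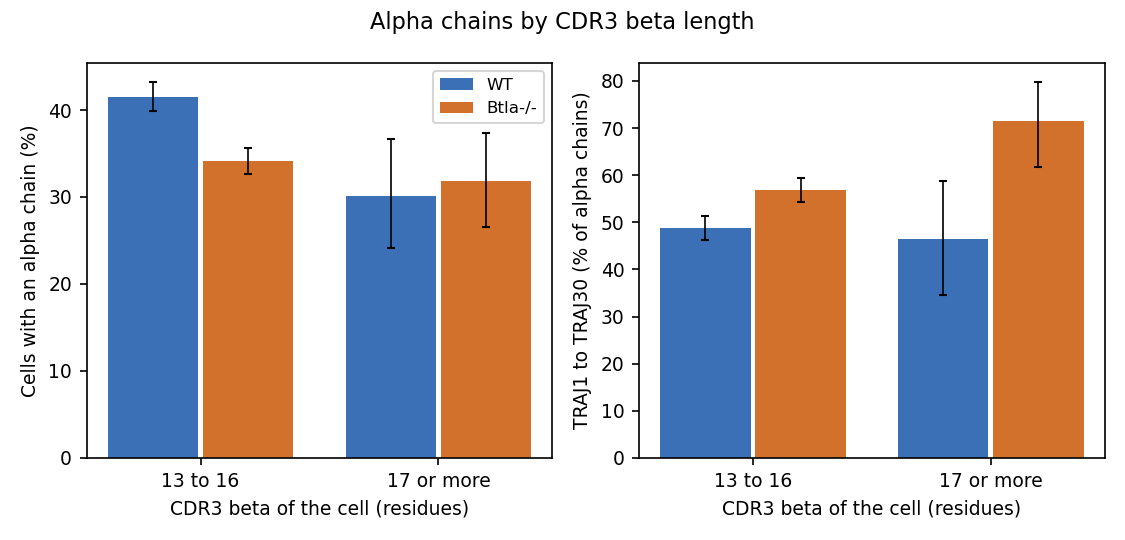
CDR3 beta length class of the cell (x axis) against the percent of cells with a TRA chain (left) and the percent of TRA chains with TRAJ1 to TRAJ30 (right), with bars for the WT and Btla-/- libraries and 95% exact intervals that cover counting error only. In WT the share of cells with a TRA chain was 41.5% with usual chains and 30.1% with a long CDR3 beta, and in Btla-/- the TRAJ1 to TRAJ30 share was 56.8% and 71.4%.

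The WT library held 80347 UMIs and the Btla-/- library 75456, with a median of 15 and 12 UMIs per cell. Long chains had a middle range (quartiles) of 7.5 to 17 UMIs in WT, against 8 to 22 in usual chains, and of 5.5 to 15 in Btla-/-, against 6 to 17. A single UMI supported 1 of 219 and 3 of 303 long chains. Chains with fewer than 3 UMIs made up 4.95% (2.80 to 8.03) of long Btla-/- chains against 2.55% (2.10 to 3.07) of usual ones, and 2.28% (0.745 to 5.25) against 2.10% (1.64 to 2.64) in WT. The median fell from 12 UMIs at 17 residues to 9 at 18 (n = 37 chains) in WT and from 9 to 7 (n = 63 chains) in Btla-/-. At 16 residues it was 12 in WT and 10 in Btla-/-. At 19 residues it was 11 in WT (n = 9 chains) and 6 in Btla-/- (n = 11 chains), so the fall was not steady in WT.

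More than 1 TRB chain was found in 5 of 219 WT members, or 2.28% (0.745 to 5.25), against 3.94% (3.30 to 4.66) of cells with a usual chain. In Btla-/- it was 16 of 302, or 5.30% (3.06 to 8.46), against 3.89% (3.32 to 4.52). A cell with more chains has more chances to be a member, and the intervals overlapped in both libraries. In 1 of these Btla-/- cells the other TRB chain was also long, and in the remaining members the other TRB chains had 12 to 16 residues. The long chain had the most UMIs of its cell in 1 of the 5 WT cells and in 9 of the 16 Btla-/- cells. The 16 include the cell with 2 long chains, where a long chain has the most UMIs whichever it is. Droplets with more than 1 cell were not removed.

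No long CDR3 beta was shared by the libraries. The 214 distinct long amino acid sequences of WT and the 290 of Btla-/- had 0 in common. At 3 counts of the total this allows a share of up to 1.40% and 1.03%, with exact upper bounds of 1.71% and 1.26%. Of the usual sequences, 87 were in both libraries, or 2.71% (2.17 to 3.33) of 3214 in WT and 2.16% (1.74 to 2.66) of 4021 in Btla-/-. By length, the WT share found in Btla-/- was 4.19% (3.09 to 5.53) at 14 residues, 1.62% (0.930 to 2.62) at 15 and 0.784% (0.214 to 2.0) at 16. Within a library, 4 of 214 long nucleotide sequences of WT and 12 of 290 of Btla-/- were found in more than 1 cell, and none in more than 3. The WT share was 1.87% (0.512 to 4.72), against 3.07% (2.51 to 3.73) of 3253 usual sequences. In Btla-/- it was 4.14% (2.16 to 7.12), against 4.71% (4.08 to 5.41) of 4073. The classes overlapped in both libraries. Of the 16 repeated long sequences, 3 were in cells that shared a TRA chain and 2 were in cells whose TRA chains differed. The other 11 had no TRA chains to compare. The libraries shared 30 cell barcodes, which marked 1 WT member and 4 Btla-/- members, and leaving them out turned the direction of none of the values recomputed without them.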

How the data were processed

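Contigs had been built by the authors with Cell Ranger 7.2.0 against a GRCm38 V(D)J reference, as the submitters' processing notes name them. The values deposited for each productive contig are its read count and its UMI count, neither of them normalized. The summary tables of the series were not used.

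Every TRB contig was taken as a chain and classed by the length of its CDR3. The members, gene lists and comparisons were chosen with earlier results of these data known. The germline end of each TRBV gene and start of each TRBJ gene were read from the GRCm38 genome at GENCODE positions, and matched to each CDR3 from its ends without mismatch. Contigs called TRBV10 carried the germline end of the gene annotated as TRBV4, which was used for them. The longest TRBD match was sought in the remaining bases, and matching was tested on simulated data. Named TRBV genes were the 5 highest and 5 lowest by the mean log2 ratio of long to usual chains, where a gene made up 1% or more of both libraries. TRAV subgroups and TRAJ genes were the 2 highest and 2 lowest where the share was 2% or more. The 2 TRAJ genes listed as lowest were absent from Btla-/- members, so their mean ratio was undefined. All TRBJ and TRBD genes were reported. TRBV17 was named after its values were seen.

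Intervals were exact at 95% (scipy 1.17.1, Python 3.11.15, pandas 2.3.3). They cover counting error only, since PCR reads and cells of a library are not independent samples, and no test between genotypes was possible with 1 library each. The alternatives were a minimum of 3 UMIs, 1 chain per cell, cells with exactly 1 TRB chain, each nucleotide sequence counted once, shared barcodes left out, a limit of 18 residues, and other settings of the matching and of the middle.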

Additional observations from a re-analysis of the deposited data

Results flagged for a closer look

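TRBV17 was used by 4.70 percentage points more of the long chains in the Btla-/- library than in the WT library. It was rarer among long than among usual chains in WT (0.913% against 2.86%) and more frequent in Btla-/- (5.61% against 2.53%). Only the Btla-/- classes were apart, and the long WT share rested on 2 chains. Counted once per nucleotide sequence, the intervals of the libraries overlapped. The opposite directions drew attention, and the difference was not tested, with 1 library per genotype. TRBV17 was singled out among 22 V calls.

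In Btla-/- cells with a long CDR3 beta, TRAJ1 to TRAJ30 made up 14.6 percentage points more of the TRA chains than in Btla-/- cells with usual TRB chains. In WT the difference had the opposite sign, at -2.34 percentage points. With only cells of exactly 1 TRB chain, the share in Btla-/- members was 68.6% (57.7 to 78.2). That interval overlapped the 54.2 to 59.3 of all Btla-/- cells with usual TRB chains. The WT sign was not stable: in members it turned in cells with exactly 1 TRB chain (50.0% of TRA chains), with the boundary at TRAJ20 (31.0% against 27.6%) and with the boundary at TRAJ40 (71.8% against 70.0%). The difference between the genotypes was not tested.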

How the results depend on the processing

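Of 214 recomputed values, 185 kept their direction and stayed within the interval of the value reported. For means and medians the range was 1 SD over chains, and for counts 1.5 times. The share of extra bases between V and J had a fixed margin in percentage points. Apart from the limit of 18 residues, most settings kept most of the same long chains. A change of the comparison class alone could not move a share among long chains. The number 185 is therefore no measure of how stable the results are. No paired analysis was possible because there was 1 library per genotype and no test. With long defined as 18 or more residues, the share of TRB cells with a long CDR3 beta was 1.20% in WT and 1.52% in Btla-/-. TRBJ2 genes then made up 81.3% of WT long chains, TRBD2 calls made up 50.0% in WT and 42.1% in Btla-/-, and runs of glycine were in 56.6% of Btla-/- chains. Under that limit 1 TRBV gene (TRBV2) and 1 TRBJ gene (TRBJ2-7) were apart in both libraries, and the 2 tandem chains of Btla-/- made 2.63%. Cells with more than 1 TRB chain were 0% in WT (exact upper bound 7.40%), and repeated sequences numbered 1 in WT and 6 in Btla-/-. TRBV17 was at 0% in WT (0 to 7.40) and 11.8% in Btla-/- (5.56 to 21.3), with overlapping intervals. Its 9 Btla-/- chains included a sequence found in 3 cells and another found in 2. TRAJ1 to TRAJ30 stood at 83.3% in Btla-/-. The glycine share of the WT middle was 22.9% under that limit, which reversed its direction against usual chains, and the cause was not tested. With 3 first and 4 last residues left out, glycine made up 22.2% of the middle in WT and 23.7% in Btla-/-. Only 1 TRBV gene, TRBV5, was apart in both libraries with at least 3 UMIs, and 1, TRBV5, with each sequence counted once. The TRBJ genes apart in both libraries numbered 5 with at least 3 UMIs, without TRBJ2-2, and 5 in cells with exactly 1 TRB chain, without TRBJ2-3. Chains with TRBD1 then TRBD2 made 3.65% of WT and 1.98% of Btla-/- long chains at a minimum of 6 bases, and 0.457% and 0% at 8 bases. In WT, the TRAJ direction of members against other cells reversed in cells with exactly 1 TRB chain (50.0% of TRA chains), with the boundary at TRAJ20 (31.0%) and at TRAJ40 (71.8%). In Btla-/- these boundaries gave 50.5% and 83.8%. Cells with a long CDR3 beta and 1 to 5 TRB UMIs had a TRA chain in 37.0% in Btla-/-, which reversed the direction, and those above 20 UMIs in 21.6%. The boundaries and the split by UMIs were chosen after seeing the data. The number of TRA chains in members, 71 and 105, limits the precision of the TRAJ shares.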
